A study of Glycine max with 14 samples.

Results

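The 150 loci described here had their highest mean level in soybean cotyledons at stage 6 of 7 seedling stages and the largest ratios of stage 6 to stage 1. They were chosen from 69145 loci (Glycine max, cultivar Williams) by their measured values. Each locus was represented by the gene model with the highest mean RPKM (reads scaled by the length of the model and the read total of the library) over the 14 libraries. Loci were kept if their highest stage mean fell at stage 6 and reached 50 RPKM, which left 398, and 389 after 9 were set aside by identifier. The 150 with the largest log2((stage 6 mean + 1)/(stage 1 mean + 1)) are the members. Stage 6 against any other stage is therefore a description below and carries no test.

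All libraries were made from lyophilized germinating cotyledons of greenhouse plants, with 2 biological replicates at each stage. Stage 1 was taken 1 day after imbibition. Counted in days from planting, the later ages were 2 (stage 2), 2 to 3 (stage 3), 3 to 4 (stage 4), 4 to 5 (stage 5), 5 to 6 (stage 6) and 6 to 7 (stage 7). The sources used here do not say how many plants were pooled. The libraries held 83.9 to 130.7 M read assignments to gene models (the totals in the RPKM denominators). The deposited files pair no identifier with a gene name, and the RefSeq gene table matched 0 of them, so members are given by identifier, without role, sequence or coordinates, and the tissue label could not be checked against marker genes.

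The cotyledons of a soybean embryo store protein and oil and feed the seedling after imbibition. In soybean they are carried above ground, turn green, build chloroplasts and for a time work as leaves before they wither. Greening depends in general on many nuclear genes for plastid proteins whose RNA rises in the light. Which members belong to those genes is not known from the sources used here.

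The ratio that chose the members was large. Their log2 ratio of stage 6 to stage 1 ran from 6.24 to 9.74 with a median of 7.44, and the median ratio of the stage means was 500-fold. The median over members was 1.06 RPKM at stage 1, 12.2 RPKM at stage 2 and 20.5 RPKM at stage 3, then 125, 281 and 466 RPKM at stages 4, 5 and 6, and 297 RPKM at stage 7. At stage 6 the members ranged from 87.4 to 4522 RPKM, and 31 of them reached 1000 RPKM. Counting precision was lowest at stage 1, where the median was 97.5 reads, and 1 member was at 0 in 1 library.

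Together the members took a growing part of the RNA measured. As a percent of all RPKM in a library they held 0.0335% and 0.0580% at stage 1 (replicates 1 and 2), 0.264% and 0.734% at stage 2, 0.566% and 1.07% at stage 3, 2.35% and 5.60% at stage 4, and 8.07% and 9.36% at stage 5. At stage 6 they held 13.3% and 12.7%, and at stage 7 they held 6.82% and 9.22%. The summed share was above every earlier library in both libraries of each stage from stage 4 to stage 6, and both stage 7 libraries were below both stage 6 libraries. RPKM are relative values from whole cotyledons, so more RNA per cell and more cells that make it cannot be told apart. The 10 highest members of a library held between 23.4% and 35.4% of the members' RPKM.

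**Figure D1:**
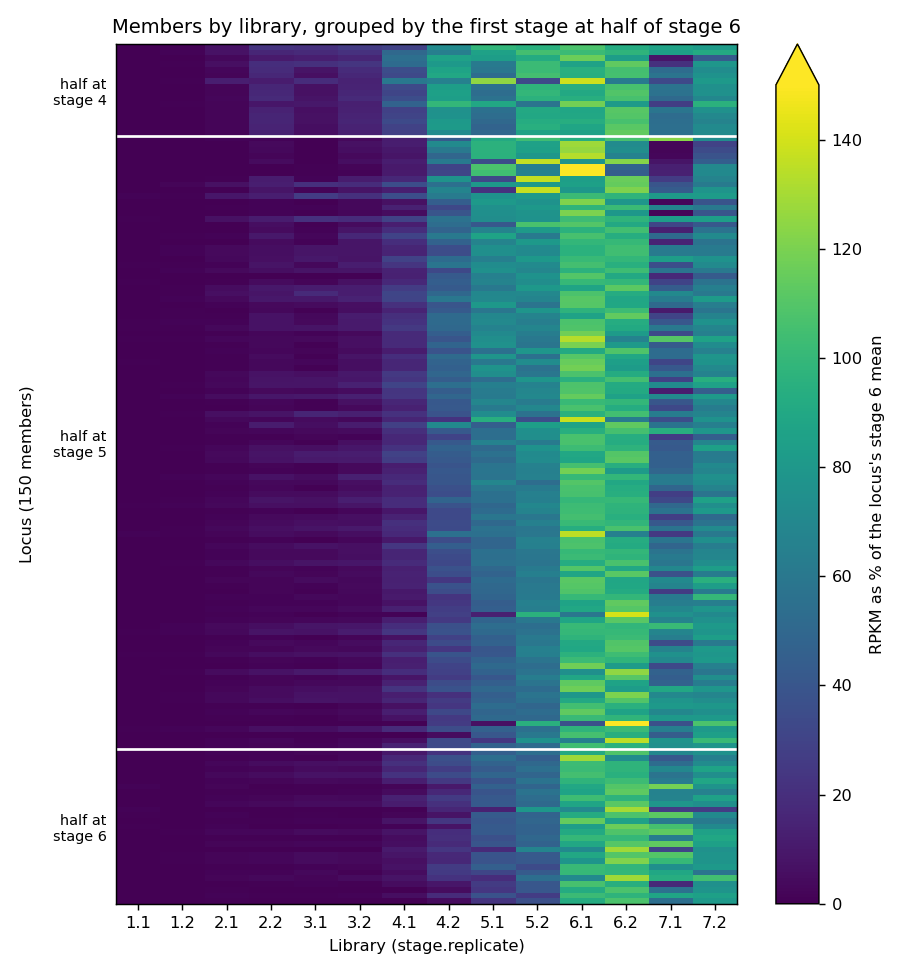
RPKM of each of the 150 members (rows) in each of the 14 libraries (columns, stage and replicate) as a percent of the locus's stage 6 mean, with colours capped at 150%. Rows are grouped by the first stage whose mean is at least 50% of the stage 6 mean, which is stage 4 for 16 loci, stage 5 for 107 and stage 6 for 27, and stage 4 replicate 2 is brighter than stage 4 replicate 1 in every row.

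The steps between stages were uneven. The median log2 step, on stage means with 1 RPKM added, was 2.42 from stage 1 to 2, 0.67 from stage 2 to 3, 2.44 from stage 3 to 4, 1.16 from stage 4 to 5 and 0.69 from stage 5 to 6, followed by -0.65 from stage 6 to 7. Over the 3063 loci that reached 50 RPKM at any stage, the same medians were 0.51, 0.13, 0.07, -0.19, -0.36 and 0.12. The largest single step ended at stage 2 for 73 members, at stage 4 for 70 and at stage 5 for 7. These counts hold for the 1 RPKM added, which is close to the members' median stage 1 level of 1.06 RPKM. It shrinks the step from stage 1 to 2 most, so the 2 largest steps cannot be taken as equal. With nothing added, the members' median went from 1.06 to 12.2 RPKM between stages 1 and 2. That is a larger ratio than from 20.5 to 125 RPKM between stages 3 and 4. The step from stage 2 to 3 was the only one on the way up in which more than 1 member had a lower mean, with 140 of 150 stage means higher at stage 3. Stage means were higher at every step from stage 1 to 6 in 140 members.

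The highest-ranked member, Glyma05g08590, was at 0.604 and 1.26 RPKM in the stage 1 libraries, 11.1 and 1.17 at stage 2, 2.41 and 1.28 at stage 3, 3.81 and 72.6 at stage 4, 374 and 604 at stage 5, 1524 and 1778 at stage 6, and 900 and 1337 at stage 7 (replicate 1 first). Glyma19g01050, the next in rank, followed it closely, with 3.35 and 73.1 RPKM at stage 4, 365 and 623 at stage 5, and 1422 and 1657 at stage 6. Both stayed low through stage 3, differed by over an order of magnitude between the stage 4 libraries, and stood higher at stage 6 than in any other library. They had the lowest stage 4 levels of all members relative to stage 6, at 2.31% and 2.48%.

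The next members by rank came up earlier. Glyma16g28070 was at 1.10 and 2.02 RPKM at stage 1, 1.95 and 28.2 at stage 2, 6.23 and 52.1 at stage 3, 113 and 773 at stage 4, 1388 and 1308 at stage 5, 2081 and 1350 at stage 6, and 46.6 and 673 at stage 7. Its stage 5 and stage 6 libraries overlapped, and its stage 7 libraries lay far apart. Glyma09g28200, rank 6, was at 200 and 627 RPKM at stage 4, 912 and 1033 at stage 5, 1592 and 1380 at stage 6 and 483 and 934 at stage 7. Glyma07g01730, rank 7, was at 257 and 1386 RPKM at stage 4, 432 and 2785 at stage 5, 1613 and 2465 at stage 6 and 893 and 1579 at stage 7, so that its highest library was stage 5 replicate 2. Glyma16g26130, rank 8, reached 1345 and 939 RPKM at stage 6, and Glyma16g33030, rank 10, reached 1256 and 1116.

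**Figure D2:**
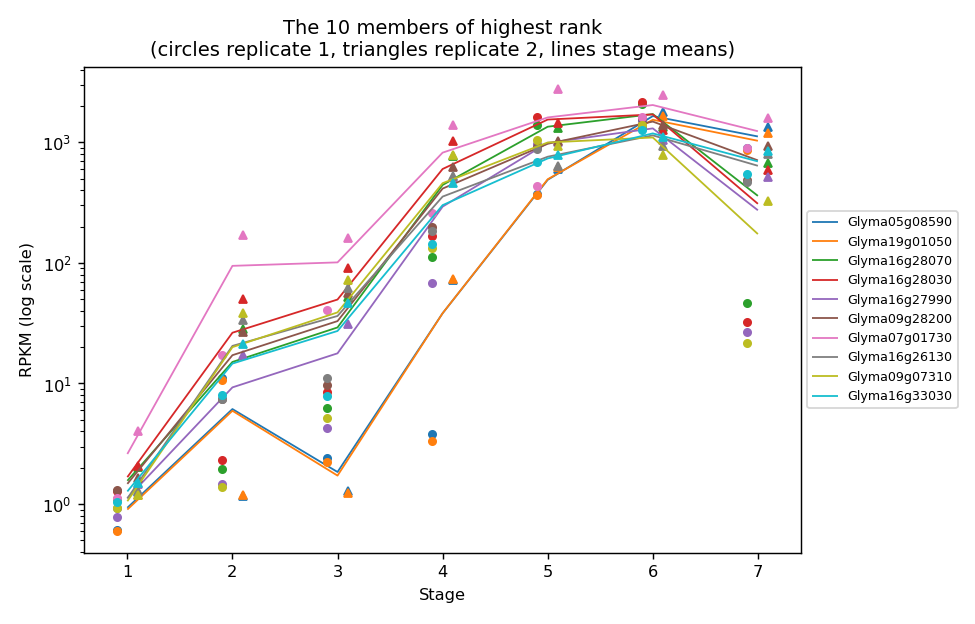
RPKM on a log scale by stage for the 10 members of highest rank, with circles for replicate 1, triangles for replicate 2 and lines through the stage means. The 2 highest-ranked loci stay under 12 RPKM through stage 3 while the stage 2 and stage 3 means of the other 8 run higher, and 4 loci drop to between 21.6 and 46.6 RPKM in stage 7 replicate 1.

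The most abundant members at stage 6 were Glyma08g21410 and Glyma05g25810. Glyma08g21410 was at 3.83 and 12.5 RPKM at stage 1, 27.7 and 513 at stage 2, 79.3 and 524 at stage 3, 766 and 3484 at stage 4, 1433 and 6166 at stage 5, 3810 and 5234 at stage 6 and 1197 and 3025 at stage 7. Replicate 2 was the higher library at each of its stages, and its highest library was stage 5 replicate 2. Glyma05g25810 was at 4.28 and 9.31 RPKM at stage 1, 762 and 2024 at stage 4, 3035 and 2158 at stage 5, 4299 and 3469 at stage 6 and 2049 and 3035 at stage 7, with both stage 6 libraries above all others.

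At the edge of the choice, ranks 148 to 150 (Glyma01g28810, Glyma20g38720 and Glyma15g00560) had log2 ratios of 6.27, 6.25 and 6.24, and the next loci outside (Glyma13g37880, Glyma14g07270 and Glyma08g19210) had 6.24, 6.23 and 6.22. Glyma15g00560, the last inside, had a stage 1 level of 2.31 ± 0.525 RPKM and a stage 6 level of 249 ± 12.8 RPKM (SD, n = 2), and Glyma13g37880, the first outside, went from a mean of 4.90 to a mean of 444 RPKM. The boundary falls in a continuous range of ratios.

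By the first stage at which the mean was at least 50% of the stage 6 mean, the members fell into 3 timing classes. The early class, at that level by stage 4, had 16 members, the middle class, at that level by stage 5, had 107, and the late class, which came to it only at stage 6, had 27. As a percent of stage 6, the early class had a median of 9.29% at stage 2, which grew to 58.2% at stage 4 and 76.6% by stage 5. In the middle class these medians were 2.51%, 28% and 63.9%, and in the late class 1.19%, 13.6% and 44.9%. The stage 6 level was similar in scale across the classes, with medians of 461, 493 and 413 RPKM. The class sizes are read from means of 2 libraries as deposited, and under upper quartile scaling the middle class held 71 members.

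The highest stage 4 levels relative to stage 6 were those of Glyma15g19510 (73.2%) and Glyma12g29100 (70.2%). Glyma15g19510 was at 76.2 and 161 RPKM at stage 4, 146 and 93.9 at stage 5, 191 and 133 at stage 6 and 44.6 and 155 at stage 7, so its libraries from stage 4 onwards overlapped and its stage 6 peak rests on the means alone.

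A set of 3 contrasts between stages other than 1 and 6 was tested in limma across all 44450 models with at least 1 RPKM in 2 or more libraries, on log2(RPKM + 1) with Benjamini-Hochberg adjustment within the contrast. A member counts as called at an adjusted p under 0.05 and a log2 fold change of 1 or more in either direction. All 150 members passed the filter on low values. The spread was estimated from all 14 libraries, stages 1 and 6 included, and the rule itself required the means at stages 2, 4, 5 and 7 to lie below stage 6. A strong rise from stage 1 to stage 6 makes a rise in between likely, so the counts describe when the members rose, and they are set beside the same counts over all tested models.

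Most of the members had risen by stage 4. From stage 2 to stage 4, limma called 116 of 150 members higher and 0 lower, where it called 3.12% of all tested models higher and 1.61% lower, and 10.9% and 2.35% of the loci that reached 50 RPKM. The median log2 fold change was 3.07 over the members (range 1.58 to 5.06), against -0.07 over all tested models. In 145 members both stage 4 libraries lay above both stage 2 libraries, which held for 30.3% of all tested models and 40.5% of the loci that reached 50 RPKM. In 0 members both lay below, as 33.2% of all tested models and 28.5% of those loci did. Without stage 2 replicate 1, and likewise without stage 4 replicate 2, limma called 0 of all 44450 models in either direction, members included, and the members' median log2 fold changes were 2.56 and 2.43.

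Of the called members, Glyma07g13780 had the largest fold change from stage 2 to stage 4, from 2.17 and 1.34 RPKM at stage 2 to 55.8 and 121 at stage 4 (log2 fold change 4.93 ± 0.630 SE, limma adjusted p = 0.00634, both stage 4 libraries above both stage 2 libraries). Glyma09g28200 followed, from 7.37 and 27.0 RPKM at stage 2 to 200 and 627 at stage 4 (4.54 ± 0.805, adjusted p = 0.0148, again without overlap). Without stage 2 replicate 1 their limma adjusted p-values were 0.101 and 0.199, and without stage 4 replicate 2 they were 0.0799 and 0.171. By class, 8 of the 16 early, 88 of the 107 middle and 20 of the 27 late members were called. Among the 34 members not called, 13 had a log2 fold change of at least 3. Glyma09g07310 had the largest of all at 5.06 ± 1.57 SE (limma adjusted p = 0.0819). It was at 1.38 and 38.7 RPKM at stage 2 and 132 and 785 at stage 4, so the stage 2 libraries differed by a larger ratio than the stage 4 libraries.

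From stage 4 to stage 5 the members were higher on average, but none was called. The median log2 fold change was 1.28 (range 0.04 to 4.78) against -0.18 over all tested models. Limma called 0 of 150 members in either direction, where it called 0.0585% of all tested models higher and 0.00225% lower, and 0.0653% and 0% of the loci that reached 50 RPKM. The unadjusted p was under 0.05 for 74 members and for 2889 of the 44450 tested models. Voom with recovered reads called 0 members and 0 models in all. In 125 members both stage 5 libraries lay above both stage 4 libraries, which held for 12.4% of all tested models and 20.9% of the loci that reached 50 RPKM. In 0 members both lay below, as 28.2% and 22.1% of these did. Stage 4 replicate 2 lay closer to stage 5 than replicate 1 did, and without that library limma called 16 members higher, among 132 of all tested models called higher and 6 lower (26 and 1 with all libraries). Without stage 4 replicate 1 the median log2 fold change was 0.62 and 133 members were above 0.

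Stage 7 and stage 5 lie on either side of the peak, and the members were split between them. The mean was higher at stage 7 in 73 members and lower in 77, and the median log2 fold change was -0.03 (range -3.54 to 1.61) against -0.09 over all tested models. Limma called 0 of 150 members in either direction, while it called 4.30% of all tested models higher and 2.95% lower, and 6.11% and 6.43% of the loci that reached 50 RPKM. The rule kept out loci with their highest mean at stage 5 or 7, which these shares include, so the counts are not like for like. The log2 fold change was 1 or more in 11 members and -1 or less in 14, with a median SE of 0.568. The 0 calls therefore do not show equal levels at the 2 stages. The unadjusted p was under 0.05 for 11 members and for 10734 of the 44450 tested models. Voom called 0 members, beside 1181 models higher and 741 lower in all. Both stage 7 libraries lay above both stage 5 libraries in 51 members (26.0% of all tested models and 28.1% of the loci that reached 50 RPKM did) and below both in 22 (35.1% and 43.3%). The split moved with single libraries. Without stage 7 replicate 1 the number of members above 0 was 108, and without stage 7 replicate 2 it was 62. Without stage 5 replicate 1 it was 65, and without stage 5 replicate 2 it was 90. These 3 contrasts share stage 4 and stage 5 libraries.

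**Figure D3:**
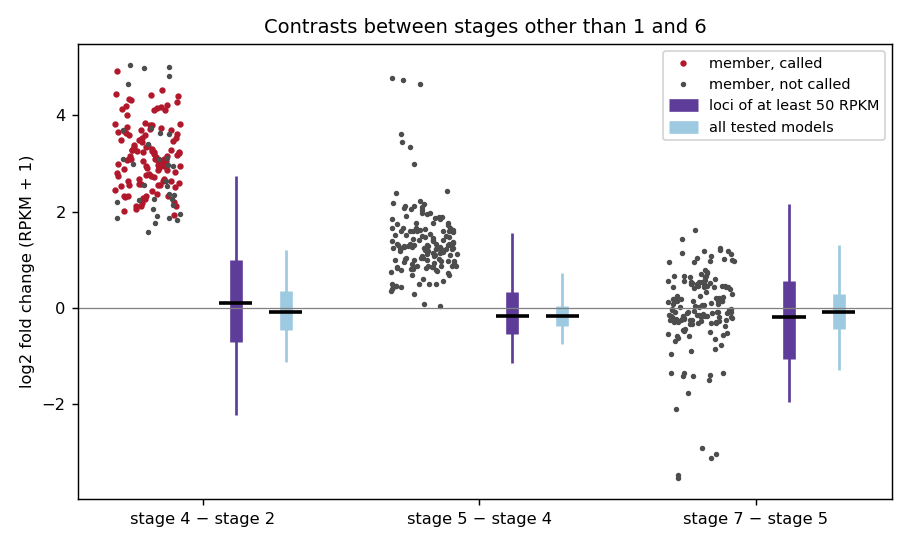
Log2 fold changes of the 150 members (points, red where called) in the 3 tested contrasts, beside the loci that reached 50 RPKM and all tested models (thick bars quartiles, thin lines 5th to 95th percentile, black bars medians). The members lie above 0 in the first 2 contrasts, at medians of 3.07 and 1.28, and on both sides of 0 in the last, where 73 are above it.

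After the peak most members stayed high. At stage 7, 119 of 150 kept at least 50% of their stage 6 mean, the median member stood at 63.4% of stage 6, and 138 members were still above their stage 4 mean. The number keeping at least 50% was 91 in replicate 1 alone, 140 in replicate 2 alone and 83 under upper quartile scaling. The late class kept the most, with a median of 76.1% of stage 6 at stage 7, against 61.0% in the middle class and 63.2% in the early class. In 26 of the 27 late members the stage 7 mean was above the stage 5 mean, which held for 47 of the 107 middle members and for 0 of the 16 early members. The classes are cut on the stage 5 level, so a late member starts from a low stage 5 value by construction, and this order carries no test.

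Glyma08g18750 and Glyma15g40140 kept the most. Glyma08g18750 was at 203 and 225 RPKM at stage 5, 436 and 519 at stage 6 and 538 and 411 at stage 7. Glyma15g40140 was at 220 and 262 RPKM at stage 5, 501 and 614 at stage 6 and 631 and 475 at stage 7. In each of them the stage 6 and stage 7 libraries overlapped and stage 7 stood at 99.4% and 99.1% of stage 6, so their peak cannot be placed at stage 6 rather than stage 7 from 2 libraries each. Their log2 fold changes from stage 5 to stage 7 were 1.14 ± 0.539 and 1.19 ± 0.531 SE (limma adjusted p = 0.229 and 0.201).

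**Figure D4:**
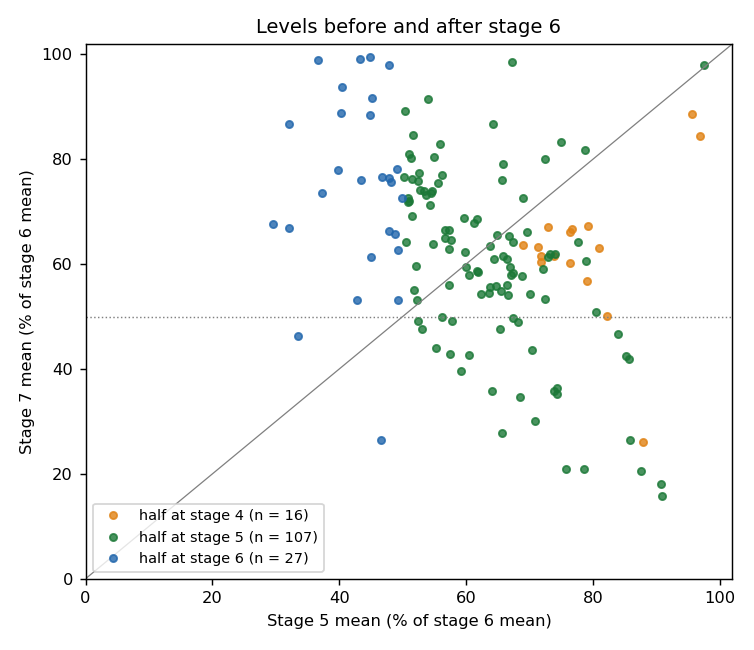
Stage 7 mean against stage 5 mean for each member, both as a percent of its stage 6 mean, coloured by timing class. The solid line marks equal levels and the dotted line 50% at stage 7; 119 loci are at or above the dotted line, and the members lowest at stage 7 (15.8% to 21%) have stage 5 levels of 75.8% to 90.9%.

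A few members were far lower in 1 of the stage 7 libraries than in the other. In 12 members stage 7 replicate 2 was at least 4 times replicate 1, and in 5 of these the ratio was from 14.4 to 19.4. Glyma16g28030 was at 32.4 and 586 RPKM at stage 7 after 1638 and 1452 at stage 5 and 2148 and 1259 at stage 6. Glyma16g27990 was at 26.8 and 520 RPKM at stage 7 after 1572 and 1038 at stage 6. Glyma09g07310 was at 21.6 and 325 RPKM at stage 7 after 1402 and 792 at stage 6, and at 15.8% it had the lowest stage 7 mean of all members relative to stage 6. Glyma16g28070, given above, and Glyma02g08910, at 17.6 and 274 RPKM, are the others. Glyma09g07310 and Glyma16g28030 kept an almost constant ratio across the libraries. Glyma16g27990, Glyma16g28030 and Glyma16g28070 lie close together in identifier order. The 5 may therefore not be separate signals. The 5 loci were also 5.87 to 7.67 times higher in replicate 2 at stage 4, and their log2 fold changes from stage 2 to stage 4, 4.65 to 5.06, were among the largest of all members, although 0 of the 5 were called there. All 12 were among the 31 members under 50% of stage 6 at stage 7, so that count leans on stage 7 replicate 1.

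The replicates of the members differed in 1 direction at most stages. At stage 4 all 150 members were higher in replicate 2, with a median difference of 1.27 on the log2(RPKM + 1) scale. Of the loci that reached 50 RPKM, 35.3% were higher in replicate 2 there, with a median of -0.35. The trait was not particular to the members. Of the 150 strongest risers peaking at stage 5, chosen by the same rule, 94.7% were higher in replicate 2 at stage 4 (median 0.42). Of those peaking at stage 7 it was 73.3% (median 0.70). Replicate 2 was also the higher library for 126, 127 and 122 members at stages 1, 2 and 3, for 116 at stage 5 and for 125 at stage 7, but for 69 at stage 6. In the same order of stages this held for 61%, 52%, 48%, 40%, 42% and 31% of the loci that reached 50 RPKM. For the risers peaking at stage 5 it was 90%, 95%, 59%, 59%, 79% and 25%. For those peaking at stage 7 it was 69%, 53%, 54%, 53%, 27% and 59%. At stage 1 the median difference was 0.40 over the members and 0.34 over the loci that reached 50 RPKM. The members' median levels there were 0.644 and 1.30 RPKM (replicates 1 and 2), so the added 1 RPKM shrinks their value. The closeness of 0.40 and 0.34 therefore does not show a like difference in RPKM. At stage 6 the median difference was -0.03. In RPKM, with nothing added, 10 members were 2-fold or more apart at stage 6, against 84, 83, 66, 106 and 12 members at stages 1 to 5 in turn and 31 at stage 7. With 1 RPKM added, which shrinks the ratios of low levels, the counts at stages 1, 2 and 3 were 29, 72 and 57. Over stages 1 to 5 and stage 7 together, 61 members were higher in replicate 2 every time. The pooled spread in limma takes in these differences.

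**Figure D5:**
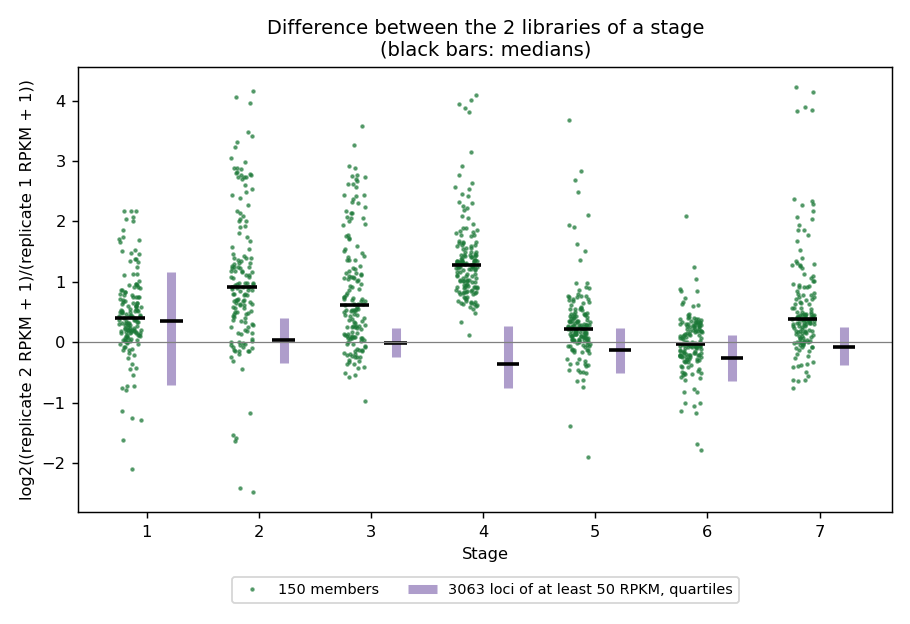
Log2 ratio of replicate 2 to replicate 1 at each stage, after adding 1 RPKM, for the 150 members (points) and for 3063 loci that reached 50 RPKM (bars, quartiles), with medians as black bars. The members are all above 0 at stage 4 (median 1.27) and centred near 0 at stage 6 (median -0.03).

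At stage 6, Glyma14g09420 differed most towards replicate 2, with 35.2 and 153 RPKM, and it was at 0.602 and 24.7 at stage 4, 6.06 and 89.6 at stage 5 and 34.2 and 101 at stage 7. It is also the member at 0 in stage 1 replicate 1. Glyma11g10450 differed most towards replicate 1 at stage 6, with 145 and 41.5 RPKM, and was at 97.3 and 61.8 at stage 5 and 13 and 66.4 at stage 7. Both stage 6 libraries were above the other 12 in 104 members, while 32 members had a stage 5 library and 24 a stage 7 library above 1 of the stage 6 libraries. The rule used these values, and both stage 6 libraries were on top in 1.55% of all tested models and 6.82% of the loci that reached 50 RPKM.

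Applied to 1 replicate series at a time, the rule could be read in libraries that did not choose the loci. Of 150 loci chosen in replicate 1 alone, 122 (81.3%) had their highest library of replicate 2 at stage 6, while 13.3% of the 2641 loci that reached 50 RPKM in replicate 2 did. The others peaked in replicate 2 at stage 5 (13), stage 7 (13) or stage 4 (2). Of 150 chosen in replicate 2 alone, 130 (86.7%) peaked at stage 6 in replicate 1, against 11.7% of 3617 loci, and the other 20 peaked at stage 7. The median log2 ratio of stage 6 to stage 1 in the libraries not used was 7.11 and 7.65, with lowest values of 3.99 and 3.64. Over the loci that reached 50 RPKM it was -0.09 and -0.08, so strong risers are set here beside loci that mostly did not rise. Those lists shared 128 and 130 loci with the 150 members. Within the members, 119 peaked at stage 6 in both replicate series, but the rule used these values, so that count is a description only.

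The members were spread over the genome as far as the identifiers tell, which carry a chromosome number and an order along it. Each of the 20 chromosome numbers held 3 to 15 members, with most on chromosome 16 (15 members, and 99 of the 3063 loci that reached 50 RPKM) and fewest on 17 (3 members and 160 loci). Chromosome 13 held 4 members and 245 of those loci. Only 16 members lay in runs, defined as members with at most 5 other loci between them in identifier order, in 7 runs of 2 or 3. The same count was 19 among the 150 strongest risers peaking at stage 5 and 28 among those peaking at stage 7, chosen by the same rule, and none of these differences was tested.

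The 2 runs of 3 members behaved differently from each other. Glyma16g27990, Glyma16g28030 and Glyma16g28070 ranked 5, 4 and 3, were all in the middle class and stood at 18.2% to 21% of stage 6 at stage 7. Glyma12g29090, Glyma12g29100 and Glyma12g29110 ranked 66, 138 and 89 and were not alike in timing. All 3 were called higher from stage 2 to stage 4. The log2 fold change was 4.10 ± 0.350 SE in Glyma12g29090 (limma adjusted p = 0.00523). It was 3.26 ± 0.622 in Glyma12g29100 (adjusted p = 0.0183) and 3.58 ± 0.391 in Glyma12g29110 (adjusted p = 0.00579). Glyma12g29090 was at 1.63 and 2.04 RPKM at stage 2, 35.3 and 64.3 at stage 4, 228 and 200 at stage 6 and 57.6 and 95.5 at stage 7. Glyma12g29100 was at 56.3 and 88 RPKM at stage 4, 120 and 85.8 at stage 6 and 9.07 and 44.5 at stage 7. Glyma12g29110 was at 23.7 and 56.8 RPKM at stage 4, 170 and 177 at stage 6 and 117 and 105 at stage 7, the highest stage 7 level after the peak of the 3.

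Many members came in sets with almost the same profile. In 43 of the 11175 pairs of members the ratio of RPKM + 1 stayed within a factor of 1.25 of its median in all 14 libraries, and 40 of the 43 joined different chromosome numbers. These pairs tied 48 members into 17 groups, of which 12 were pairs. Glyma05g08590 and Glyma19g01050, ranks 1 and 2, were one of them, with recovered lengths of 1304 and 1473 bases. Glyma13g35800 and Glyma12g34770 were another, with lengths of 1207 and 1210 bases and a median ratio of 1.14. Lengths within 5% of each other were found in 20.9% of the 43 pairs and in 6.07% of all member pairs. The risers peaking at stage 5 held 45 such pairs and those peaking at stage 7 held 17. The sources used here do not state the counting of reads with several matches, which makes the separate values of such sets uncertain, although 0 members had the same reads as a model at another locus.

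The largest set held 11 loci with 8 chromosome numbers (Glyma02g27930, Glyma04g11640, Glyma04g11870, Glyma04g21860, Glyma05g21260, Glyma08g38420, Glyma10g11090, Glyma14g28450, Glyma14g34920, Glyma15g37370 and Glyma16g19800). Their recovered lengths ran from 258 to 1947 bases with a median of 555, against a median of 1062 for all members. Their median RPKM was 0.459 and 1.14 at stage 1, 10.4 and 74.3 at stage 2, 30.8 and 73.1 at stage 3, 158 and 382 at stage 4, 259 and 438 at stage 5, 442 and 517 at stage 6 and 279 and 361 at stage 7. Stage 2 replicate 2 already stood as high as stage 3 replicate 2 in this set. It made up 10 of the 16 members of the early class, so that class is largely 1 set of near-identical profiles, and 6 of the 11 were called from stage 2 to stage 4.

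The members were not unusual in the length of their models. The recovered length ran from 207 to 2919 bases, with a median of 1062 against 1167 over the loci that reached 50 RPKM, 1299 over the risers peaking at stage 5 and 1119 over those peaking at stage 7. More than 1 model was listed for 39 members (26.0%), as for 919 of the 3063 loci that reached 50 RPKM, and up to 8 at 1 locus. All 62 other models of the member loci also had their highest stage mean at stage 6. Models of 1 locus share sequence and reads, so they are no separate evidence of the peak. The risers peaking at stage 5 were weaker by the same measure, with a median log2 ratio to stage 1 of 3.37 and a median peak of 100.1 RPKM, and those peaking at stage 7 had 5.64 and 116 RPKM.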

How the data were processed

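The deposited files give 1 RPKM value per gene model and library, per the file headers, for 78773 models, with replicates not pooled. The submitters' processing notes name Bowtie. Version, settings, genome build, annotation and read counting: not given in the sources used here. RPKM is relative to each library's total, so a few very abundant RNAs lower all others. A RefSeq table of 59048 genes matched 0 identifiers.

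Read totals and model lengths were recovered from the RPKM steps, with whole numbers (tolerance 0.003 reads, or 1e-08 of the number for high values) for 67011 of the 67016 models that were above 0 in 2 or more libraries (99.99%). Totals ran from 83.9 to 130.7 M and may count 1 read at several models.

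Models with at least 1 RPKM in 2 libraries (44450) were fitted on log2(RPKM + 1) with limma 3.58.1 in R 4.3.3 (robust option from statmod 1.5.0), using all 14 libraries, stage means, no replicate term, 7 residual degrees of freedom, and a robust mean-variance trend. Log2 fold changes are differences of mean log2 values and understate the change of low models. P-values are two-sided and set a difference of stage means against the spread between replicates, pooled over all stages. With 2 against 2 libraries a permutation test cannot go below 0.333, so none is given. Alternatives covered pseudocount, filter, scaling, replicate block, voom on recovered reads, the libraries in the fit and each library left out.

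The members, sets and tests were chosen with earlier results of these data known. Named loci are the 10 of highest rank, those next to the rank limit, the highest at stage 6, extremes at stages 4, 6 and 7, the largest calls and the largest runs. Glyma02g08910, Glyma13g35800, Glyma12g34770 and the set of 11 were named after their values were seen.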

Additional observations from a re-analysis of the deposited data

How the results depend on the processing

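Upper quartile scaling put 71 members in the middle timing class in place of 107, and with 1 library left out that class held 78 to 119. At least 114 of the 150 members were chosen again under each alternative of the rule (114 under quantile normalization, 124 with a rank offset of 0.1), and 132 to 150 with 1 library left out. The number at or above 50% of stage 6 at stage 7 was 83 under upper quartile scaling, 129 under quantile normalization, and 89 to 138 with 1 library left out. From stage 2 to stage 4, limma called 91 to 142 members higher under the other settings of pseudocount, filter, scaling, block, test and stages fitted, with 0 to 133 when 1 library was left out. From stage 4 to stage 5, 2 members were called with a pseudocount of 5, 12 in a fit with the replicate block and without stage 1, and 0 to 16 with 1 library left out. A pseudocount of 5 called 122 members from stage 2 to stage 4, beside 963 of all tested models higher and 292 lower. The main fit called 116, beside 1385 and 717. Fitting without the filter called 91, beside 972 and 424, and leaving out both stage 1 libraries called 133, beside 2644 and 2026. The block without stage 1 called 142, beside 2978 and 2485. From stage 4 to stage 5, the 2 members stood beside 33 and 1, and the 12 beside 262 and 94. From stage 5 to stage 7, a pseudocount of 5 called 2 members higher and 1 lower, beside 1138 and 838 of all tested models. Fitting the 4 libraries of the contrast alone called 2 members higher, beside 2698 and 2760. Leaving out the stage 1 libraries called 2 members higher, beside 2905 and 3018. The fit with the replicate block and without stage 1 called 5 members higher and 4 lower, beside 3165 and 3464. The members' median log2 fold change here was -0.19 to 0.25 with 1 library left out. The cause of these shifts was not tested. The median log2 fold change of all tested models from stage 4 to stage 5 moved from -0.18 to -0.05 with quantile normalization, where the members' median was 1.22, and to -0.02 when scaled to the upper quartile, where it was 1.48. From stage 2 to stage 4 the latter scaling moved it from -0.07 to 0.03, where the members' median was 3.18.

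The replicate block alone gave 140, 0 and 2 calls in the 3 contrasts, in place of 116, 0 and 0. With stage 1 left out as well it gave 142, 12 and 9. Over all tested models the block alone called 1994 higher and 1364 lower, 50 and 1, and 2151 and 1567. Without stage 1 these counts were 2978 and 2485, 262 and 94, and 3165 and 3464. The labels do not say that a number marks a shared batch. The differences between replicates 2 and 1 correlated across models at -0.173 to 0.602 between stages (median 0.274 over 21 pairs of stages, 18 of them over 0.1). The source of these correlations was not tested. The fit joining the block with the removal of stage 1, and the settings for the timing classes, were chosen after seeing the data. Depth limits the stage 1 values most, at a median of 97.5 reads over the members.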
